A study of Rattus norvegicus with 30 samples.

Results

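The data describe 9 genes of the CC and CX3C chemokine system in rat peripheral nerve and ganglia after the sciatic nerve was cut. The members were the probes whose gene name in the scanner files is Ccl2, Ccl7, Ccl20, Ccl3, Ccl4 or Ccl5, which are 6 ligands, or Ccr1, Ccr2 or Cx3cr1, which are 3 receptors. They were found with 10 probes among 41012 non-control probes that carry 35287 gene names. RNA came from adult male Sprague-Dawley rats in which 1 cm of the left sciatic nerve had been removed, and it was taken from sciatic nerve (SN, a 0.5 cm piece, proximal to the cut per the study's methods) and from the L4-6 dorsal root ganglia (DRG). Each tissue had 3 arrays at 0, 1, 4, 7 and 14 d, which makes 10 groups and 30 arrays. The 0 d groups were the controls, and no sham operation is described. Per the labels, no allele or test drug is named and all rats were anaesthetized with trichloroacetaldehyde monohydrate, magnesium sulfate and sodium pentobarbital. The labels do not state how many rats an array holds, so that the p-values below measure only the spread between arrays. The question was how strongly, when and in which of the tissues each of these genes rose after injury.

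Chemokines are small secreted proteins that draw leukocytes along a gradient. They bind receptors with 7 transmembrane helices that signal through the inhibitory class of G proteins. In a cut nerve, Schwann cells, fibroblasts and resident macrophages are known sources of the ligands, and blood monocytes that carry Ccr2 enter the nerve and clear myelin. Cx3cr1 is the receptor of fractalkine, which neurons and endothelium make, and it marks monocytes and tissue macrophages.

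All values of a member are normalized signals. A normalized signal is the log2 processed intensity of a probe minus the 75th percentile of its array, so that 0 is the level of a fairly bright probe and a step of 1 is a factor of 2. A probe's level says nothing about the level of another probe, and genes are therefore compared by their changes. Changes were fitted with limma on the 15 arrays of a tissue and are given as log2 differences ± SE. A gene was called, or is said to have risen or fallen, at a Benjamini-Hochberg adjusted p under 0.05 over all probes tested and a fold change over 2. In bulk tissue, fewer cells of a type and less RNA per cell cannot be told apart.

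The arrays had between 26914 and 35541 probes well above background, and the lowest numbers were those of 2 DRG arrays of 0 d that shared a slide with no SN array. All 0 d arrays lay on slides and a scan day of their own, so that a change against 0 d and a change of slide or scan day cannot be told apart. Differences of change between tissues, and changes between later days, could be fitted with slide as a term. In that fit, differences between tissues take DRG at 0 d from its first array alone. The median change of all probes against 0 d was 0.11 to 0.16 in SN and 0.08 to 0.14 in DRG, and -0.08 to 0.03 after quantile normalization. Of all calls against 0 d, 70.1 to 84.5% were higher in SN and 92.3 to 97.8% in DRG, against 53.7 to 62.9% and 73.0 to 86.1% with quantile normalization. The markers fitted the labelled tissues. Sensory neuron markers (Nefl, Calca, Scn10a and others, 7 on the array) summed to between 902 and 921 in DRG at 0 d and to between 6.29 and 8.20 in SN, in units of an array's 75th percentile, and Schwann cell markers to between 917 and 1084 in SN and 453 and 488 in DRG. Markers of skeletal muscle, which neither label names, ranged from 74.6 to 1013 in SN at 0 d and from 6.22 to 18.6 on day 4, and their part in the results was not tested.

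The probes are 60 bases long, and those of 6 genes are shown because they define what each signal measures. Positions are on build rn4, as the array's annotation gives them. The Ccl4 probe lies at chr10:71760267-71760326 on the plus strand. The Ccl5 probe covers chr10:71606089-71609018 on the minus strand, a span of 2930 bases, so that it crosses an intron and reads spliced RNA. The receptor probes lie on chromosome 8, Ccr1 at chr8:128694469-128694528 on the minus strand, Ccr2 at chr8:128893805-128893864 on the plus strand and Cx3cr1 at chr8:125034092-125034151 on the minus strand.
Ccl4: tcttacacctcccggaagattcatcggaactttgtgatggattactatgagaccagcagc
Ccl5: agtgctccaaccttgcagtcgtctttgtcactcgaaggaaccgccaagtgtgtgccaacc
Ccr1: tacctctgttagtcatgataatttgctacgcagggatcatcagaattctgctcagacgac
Ccr2: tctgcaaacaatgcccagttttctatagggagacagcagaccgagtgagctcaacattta
Cx3cr1: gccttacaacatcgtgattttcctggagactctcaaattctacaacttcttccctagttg

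Ccl7 had 2 probes that overlap by 29 bases, set in capitals here, at chr10:70268674-70268733 and chr10:70268643-70268702 on the plus strand. They are shown because they read the same transcript from neighbouring stretches and so give a repeat measurement.
Ccl7 first probe: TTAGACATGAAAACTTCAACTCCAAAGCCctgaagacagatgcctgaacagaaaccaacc
Ccl7 second probe: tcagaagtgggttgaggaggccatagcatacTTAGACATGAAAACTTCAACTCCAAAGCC
The first probe was brighter than the second by 0.27 to 0.71 on every array, and the calls against 0 d were the same with either. The first stands for the gene below. The remaining probes lie at chr10:70257919-70257978 for Ccl2 and chr9:82443347-82443406 for Ccl20, both on the plus strand, and at chr10:71744611-71744670 on the minus strand for Ccl3. The CC ligands other than Ccl20 thus all lay on chromosome 10. The longest run shared between probes of different members was 8 bases. The Ccl2 probe was printed in 10 spots per array, and the SD between its spots within an array was 0.03 to 0.14 with a median of 0.06.

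The promoters of 5 of the 9 genes (Ccl20, Ccl7, Ccr1, Ccr2 and Cx3cr1) are in the RefSeq table of build GRCr8. Those of Ccl20 and Ccl7 are shown, 250 bases up to the transcription start, because both ligands were highest in SN at 1 d and both hold a kappaB motif, the site bound by NF-kappaB. Capitals mark the motifs, which were searched on both strands and do not overlap. In Ccl20 (chr9:91836909-91837158, plus strand) the kappaB motif lies on the minus strand from -89 to -80, counted from the start.
Ccl20 promoter: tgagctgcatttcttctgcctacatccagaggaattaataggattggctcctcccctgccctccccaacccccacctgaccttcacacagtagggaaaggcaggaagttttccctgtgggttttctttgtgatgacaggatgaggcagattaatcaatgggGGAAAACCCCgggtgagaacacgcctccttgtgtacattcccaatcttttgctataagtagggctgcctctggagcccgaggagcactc
Ccl7 promoter: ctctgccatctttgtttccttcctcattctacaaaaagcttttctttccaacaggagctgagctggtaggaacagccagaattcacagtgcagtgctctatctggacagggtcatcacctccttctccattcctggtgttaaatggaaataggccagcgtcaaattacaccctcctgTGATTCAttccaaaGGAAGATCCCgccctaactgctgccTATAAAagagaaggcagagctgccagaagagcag
In Ccl7 (chr10:67513845-67514094, plus strand) the marked runs are an AP-1 motif TGANTCA from -73 to -67, a kappaB motif on the minus strand from -59 to -50 and TATAAA from -34 to -29. The kappaB motif stands in 6.33% of the 33469 promoters of the table, TGANTCA in 6.34% and TATAAA in 12.93%. None of these motifs was found in the windows of Ccr1, Ccr2 and Cx3cr1, although the means of Ccr1 and Ccr2 in SN were also highest at 1 d. The STAT motif TTCNNNGAA, which 7.67% of promoters hold, was found in none of the 5. A match describes letters and not a bound factor.

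**Figure D1:**
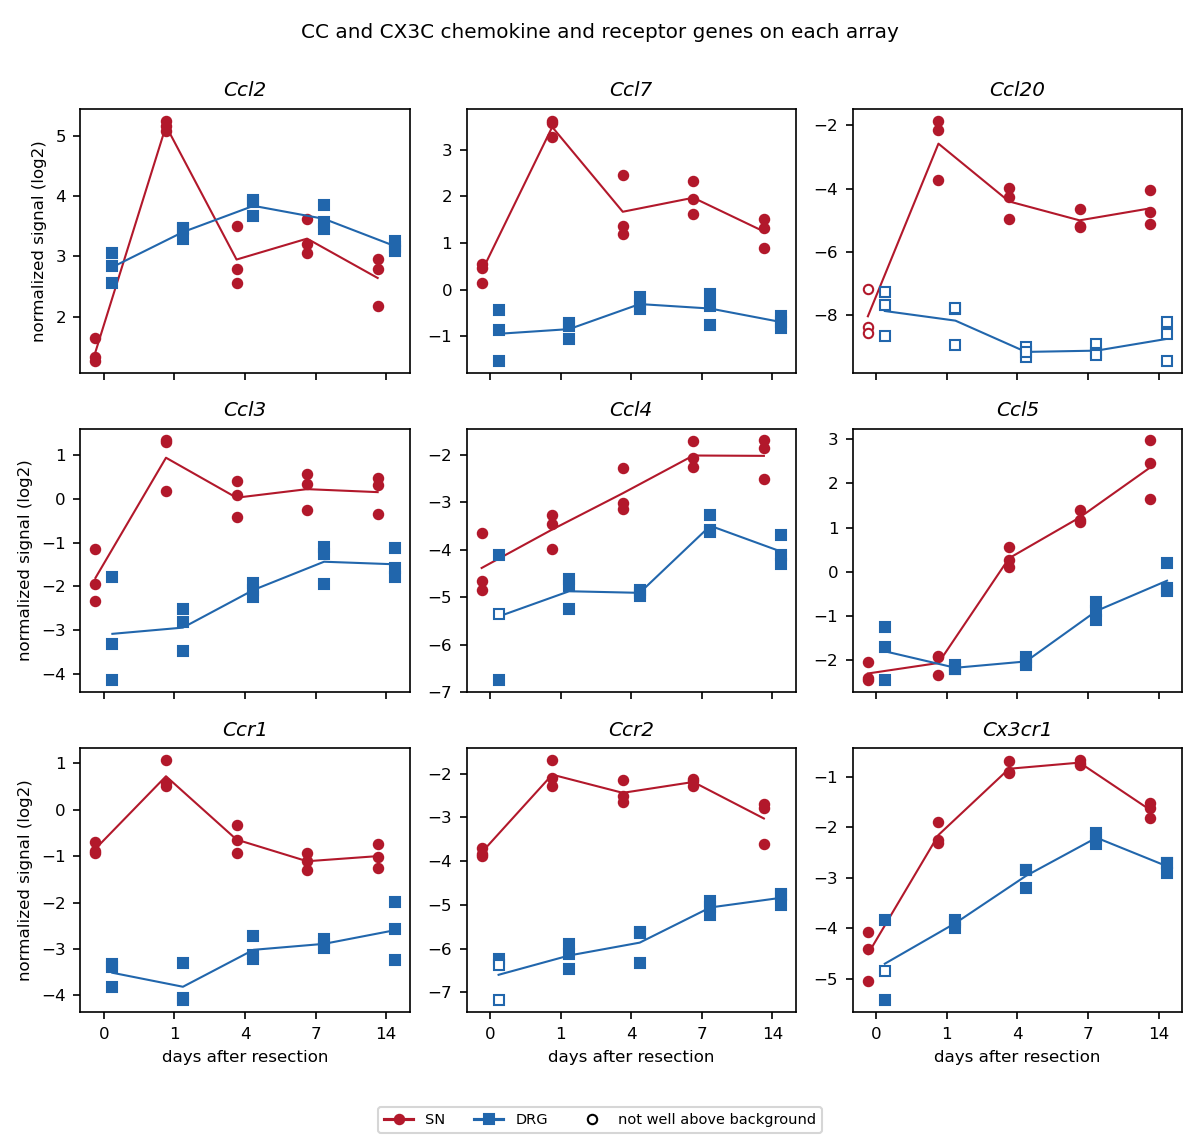
Normalized signal (log2, vertical axes) of the 9 genes on each of the 30 arrays by days after resection. Circles are SN arrays, squares are DRG arrays, open symbols are arrays on which the probe was not well above background, and lines join the means of 3 arrays. Ccl2, Ccl7 and Ccl20 are highest in SN at 1 d, Ccl5 climbs in SN to 14 d, and Ccl20 is open on all 15 DRG arrays.

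In SN the genes fell into different time courses. Ccl2, Ccl7, Ccl20 and Ccr1 rose at 1 d and fell by 4 d, Cx3cr1 rose at 1 d and again by 4 d, and Ccl4 and Ccl5 were first called at 4 d. At 1 d, 7 of the 9 genes had risen against 0 d, and 18.6% of all 35157 probes tested in SN had. On day 4, 8 of the 9 had risen beside 15.9% of all probes, on day 7 again 8 beside 18.1%, and on day 14 there were 6 beside 14.3%. No member was called lower than at 0 d by limma or by the methods' t-test, and none was lower at an unadjusted p under 0.05. Of all probes 3.43, 6.78, 6.81 and 5.46% were called lower by limma in the order of days. A count of 0 among 9 genes is near these shares. The median change of the members was 2.35, 1.57, 2.02 and 1.96 in the order of days.

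Ccl2, the main chemoattractant of Ccr2-bearing monocytes, read 1.28, 1.33 and 1.65 on the SN arrays at 0 d. It read 5.25, 5.08 and 5.16 at 1 d. The arrays of day 4 read 2.56, 2.79 and 3.50, those of day 7 read 3.05, 3.62 and 3.21, and those of day 14 read 2.79, 2.18 and 2.96. All arrays after injury were above all at 0 d, those of 1 d stood clear of every other day, and the arrays of 4, 7 and 14 d overlapped. The rise was 3.74 ± 0.25 at 1 d, or 13.4-fold (limma adjusted p = 4.16e-07), and 1.53, 1.88 and 1.22 on the later days, all called. Between 1 and 4 d Ccl2 fell by 2.21 ± 0.25 (limma adjusted p = 6.34e-05).

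Ccl7, a second monocyte attractant that binds Ccr2 and Ccr1, read 0.14, 0.55 and 0.47 in SN at 0 d. The arrays of day 1 read 3.62, 3.28 and 3.57, those of day 4 read 1.19, 1.37 and 2.46, those of day 7 read 1.63, 2.34 and 1.95, and those of day 14 read 1.33, 0.89 and 1.52. The order of days was that of Ccl2, with 1 d apart from all others and the later days overlapping. Ccl7 rose by 3.11 ± 0.30 at 1 d, or 8.60-fold (limma adjusted p = 5.10e-06). It rose by 1.29 and 1.59 on days 4 and 7, and the difference at 14 d was 0.86 (limma adjusted p = 0.0273), under the fold threshold, and 1.04 and called without its second array. Without the third array of 4 d, the highest of its group, the difference at 4 d was 0.89 and not called. Between 1 and 4 d Ccl7 fell by 1.82 ± 0.30 (limma adjusted p = 7.54e-04), and by 1.72 with the other probe.

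Ccl20, which attracts Ccr6-bearing lymphocytes and dendritic cells, was not well above background on any SN array at 0 d. It was on all 12 SN arrays after injury, at -3.73, -1.86 and -2.15 on day 1, -4.96, -4.28 and -3.97 on day 4, -5.20, -4.63 and -5.17 on day 7 and -4.72, -5.12 and -4.03 on day 14. The arrays of 1 d were above those of all later days, which overlapped. The probe passed the filter only through the injured groups. Its fitted differences against 0 d, which are part of the counts above, were called on each of these days (limma adjusted p = 3.68e-06 at 1 d). Against the dimmest signal counted as above background at 0 d, a bound that was not tested, Ccl20 rose at least 14.2-fold at 1 d. On days 4, 7 and 14 it rose at least 4.00, 2.64 and 3.44-fold. It fell by 1.82 ± 0.50 between 1 and 4 d (limma adjusted p = 0.0140), a call that was lost without the second or the third array of 1 d or the first of 4 d, at -1.46, -1.61 and -1.55. It was also lost with slide as a random block (-1.79) and with normexp and percentile scaling (-0.97). The calls at 4, 7 and 14 d did not hold when the background was corrected by normexp, where the differences were 0.91, 0.40 and 1.42 with percentile scaling.

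Ccl3, a ligand of Ccr1 made by activated macrophages, read -1.95, -2.32 and -1.14 in SN at 0 d. It read 1.30, 0.17 and 1.33 on day 1, then -0.42, 0.10 and 0.39 (day 4), 0.34, 0.56 and -0.26 (day 7) and 0.32, -0.35 and 0.48 (day 14). Every array after injury was above every array at 0 d, but the 4 later groups all overlapped their neighbours in order of level. Ccl3 rose by 2.74 ± 0.39 at 1 d, or 6.68-fold (limma adjusted p = 8.12e-05), and by 1.83, 2.02 and 1.96 on the later days. The step from 1 to 4 d was -0.91 ± 0.39 (limma adjusted p = 0.0825), so that a maximum at 1 d was not called for this gene.

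Ccl4, a macrophage and lymphocyte product that sits beside Ccl3 on the chromosome, read -4.85, -4.67 and -3.64 in SN at 0 d and -3.27, -3.99 and -3.46 at 1 d. The lowest array of 1 d lay below the highest of 0 d, and the difference of 0.81 ± 0.34 was not called (limma adjusted p = 0.0566), but was without the third array of 0 d (1.18) or the second of 1 d (1.02). It read -3.14, -3.01 and -2.28 on day 4, -2.07, -1.72 and -2.26 on day 7 and -1.87, -2.50 and -1.70 on day 14. Ccl4 rose by 1.57 ± 0.34 at 4 d (limma adjusted p = 0.00169) and by 2.37 and 2.36 on days 7 and 14, or 5.16 and 5.14-fold. The levels of 7 and 14 d did not differ beyond their spread. With normexp and quantile scaling the difference at 4 d was 0.84 and not called.

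Ccl5, which draws T cells and monocytes, was the latest. It read -2.45, -2.41 and -2.03 in SN at 0 d and -2.34, -1.91 and -1.93 at 1 d, and these groups overlapped. It then read 0.11, 0.26 and 0.56 on day 4, 1.17, 1.40 and 1.12 on day 7 and 2.97, 1.65 and 2.46 on day 14. From 4 d on each group stood clear of the one before it. The difference at 1 d was 0.24 ± 0.27 (limma adjusted p = 0.464), and Ccl5 then rose by 2.61, 3.53 and 4.66 ± 0.27 at 4, 7 and 14 d, the last being 25.2-fold (limma adjusted p = 1.40e-07). The step from 1 to 4 d was a rise of 2.37 ± 0.27 (limma adjusted p = 6.45e-05).

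Ccr1, a receptor of Ccl3, Ccl5 and Ccl7 on monocytes and neutrophils, read -0.94, -0.71 and -0.88 in SN at 0 d. Only the arrays of 1 d stood apart, at 1.06, 0.51 and 0.58. Ccr1 rose by 1.56 ± 0.19 at 1 d, or 2.95-fold (limma adjusted p = 2.43e-05), and fell by 1.36 ± 0.19 to 4 d (limma adjusted p = 2.37e-04). The arrays of 4, 7 and 14 d lay between -1.30 and -0.34 and overlapped those of 0 d, with differences of 0.20, -0.27 and -0.16 that were not called.

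Ccr2, the receptor of Ccl2 and Ccl7, read -3.83, -3.70 and -3.88 in SN at 0 d. It read -1.69, -2.10 and -2.28 on day 1, -2.51, -2.65 and -2.16 on day 4 and -2.27, -2.17 and -2.14 on day 7, groups that overlapped in order of level. At 14 d the arrays read -2.79, -3.60 and -2.69, below those of 4 d and above those of 0 d. Ccr2 rose by 1.78 ± 0.22 at 1 d, or 3.43-fold (limma adjusted p = 3.22e-05), and by 1.36 and 1.61 on days 4 and 7. The difference at 14 d was 0.78 (limma adjusted p = 0.0103), under the fold threshold, and 1.06 and called without its second array. With normexp background correction and quantile scaling, the rises at 1, 4 and 7 d were 0.93, 0.68 and 0.92 and none passed the fold threshold.

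Cx3cr1 read -5.04, -4.40 and -4.08 in SN at 0 d and rose in 2 steps. It read -1.89, -2.32 and -2.26 on day 1, -0.91, -0.93 and -0.70 on day 4, -0.68, -0.73 and -0.77 on day 7 and -1.63, -1.83 and -1.52 on day 14. The arrays of 4 and 7 d overlapped, and every other pair of neighbouring levels was apart. The rise was 2.35 ± 0.20 at 1 d and then 3.66, 3.78 and 2.85, all called, and the largest was 13.8-fold (limma adjusted p = 4.89e-08). The step from 1 to 4 d was 1.31 ± 0.20 (limma adjusted p = 4.72e-04). From 7 to 14 d the difference was -0.93 ± 0.20 (limma adjusted p = 0.0134), a 1.91-fold decrease that misses the fold threshold.

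**Figure D2:**
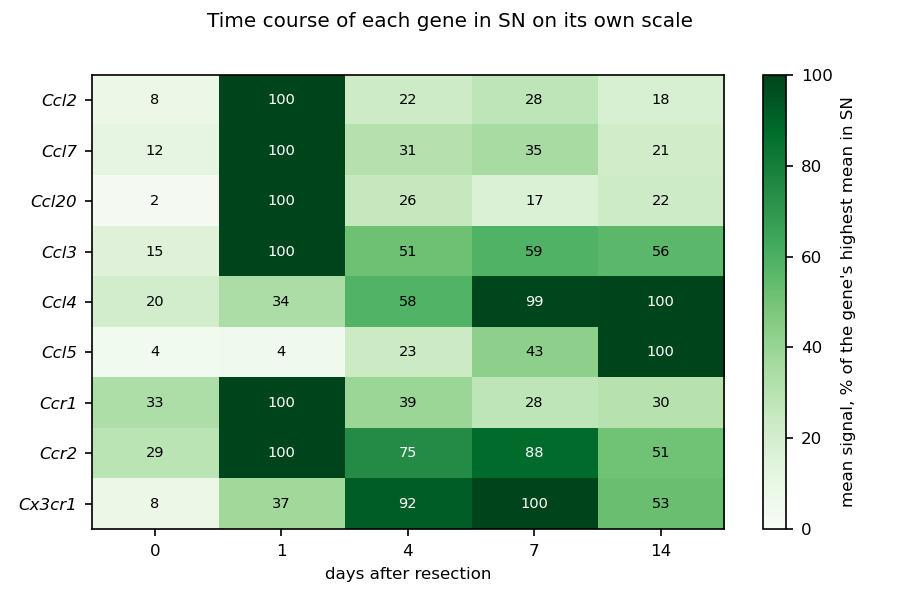
Mean signal of each gene in SN (mean of the linear values of 3 arrays), in percent of the gene's highest mean, by days after resection. Rows are genes and columns are days, so that each row shows a gene's own time course and rows cannot be compared for level. Ccl2 stood at 7.52% at 0 d and fell from its maximum at 1 d to 22.48% at 4 d, while Ccl5 stood at 4.4% at 1 d and 42.81% at 7 d.

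From 1 to 4 d in SN, Ccl5 and Cx3cr1 rose, 2 members beside 3.40% of all probes, and Ccl2, Ccl7, Ccl20 and Ccr1 fell, 4 members beside 5.13%. With slide as a term in the fit, Ccl2, Ccl7 and Ccr1 still fell and Ccl5 still rose, but Cx3cr1 was not called at 1.28 (limma adjusted p = 0.0760). Ccl20 was not in that fit because no DRG array had it well above background. From 7 to 14 d only Ccl5 passed, with a rise of 1.13 ± 0.27 (limma adjusted p = 0.0210) beside 0.910% of all probes. That rise was 1.09 with slide as a term and was then not called (limma adjusted p = 0.341), and it was lost without the first, second or the third array of 7 d (1.10, 1.22 and 1.08) or the first of 14 d (0.83). From 4 to 7 d no member was called by limma, beside 468 probes called higher and 445 lower of the 35157 tested. At an unadjusted p under 0.05 there were 3 (Ccl4, Ccl5 and Ccr1), and the methods' t-test called 0.

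In DRG fewer of the genes were called, and later. Of the 9 genes 8 were tested, since Ccl20 was not well above background on any of the 15 arrays. None was called at 1 d, beside 7.44% of the 34968 probes tested in DRG. At an unadjusted p under 0.05 limma gave 2 (Ccl2 and Cx3cr1) and the methods' t-test gave 0. On day 4, 2 genes had risen beside 6.04% of all probes, on day 7 there were 4 beside 6.58%, and on day 14 there were 5 beside 13.0%. Without the 2 arrays of 0 d on the slide with no SN array, only the first array of 0 d is left. It was the lowest of its group for Ccl2, Ccl4, Ccl5, Ccl7 and Cx3cr1. Among the differences that then passed the fold threshold were Ccl4 (1.88) and Cx3cr1 (1.52) on day 1. On day 4 there were Ccl4 (1.84) and Ccl7 (1.22), and on day 7 Ccl2 (1.06), Ccl5 (1.57) and Ccl7 (1.12). These rest on a single control array. The members' median change was 0.29, 0.69, 1.23 and 1.48 in the order of days. No step between neighbouring days was called by limma. Of all 34968 probes, 532 were called higher and 962 lower from 1 to 4 d, 48 and 14 from 4 to 7 d, and 11 and 23 from 7 to 14 d. With so few calls among all probes, a count of 0 members in the last 2 steps says little about these genes. At an unadjusted p under 0.05 the 3 steps had 4, 4 and 2 genes, and the t-test, unadjusted, called 0, 2 and 0. After Benjamini-Hochberg adjustment the t-test called 0 in all of them.

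**Figure D3:**
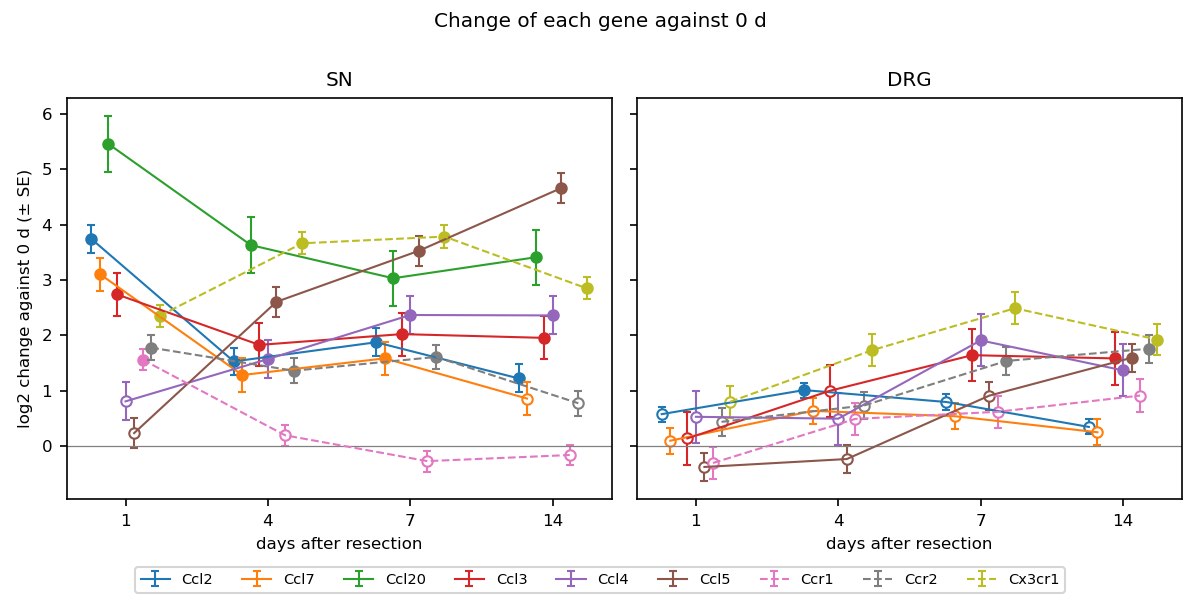
Log2 change against 0 d (± SE from the limma fit, 3 arrays per group) of each gene in SN (left) and DRG (right) by days after resection. Filled points passed the adjusted p and fold thresholds, open points did not, solid lines are ligands and dashed lines receptors. The points of Ccl20 are fitted differences against a 0 d level not above background. The largest point in SN is Ccl20 at 1 d, where the lower bound is 14.2-fold, and in DRG it is Cx3cr1 at 7 d with 2.49.

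Cx3cr1 had the largest changes of the members in DRG. It read -5.42, -4.85 and -3.83 at 0 d, with 2 of the 3 above background. It read -3.86, -3.98 and -3.84 on day 1, -2.84, -3.21 and -2.84 on day 4, -2.19, -2.11 and -2.33 on day 7 and -2.90, -2.70 and -2.72 on day 14. The arrays of 1 d overlapped those of 0 d and all later arrays were above both. The difference of 0.80 at 1 d was not called (limma adjusted p = 0.0722). Without the third array of 0 d it was 1.24 and called. Cx3cr1 rose by 1.73 ± 0.29, 2.49 and 1.93 on days 4, 7 and 14, and the rise at 7 d was 5.62-fold (limma adjusted p = 9.31e-05). With normexp and quantile scaling the differences on days 4 and 14 were 0.81 and 0.86 and not called, and the adjusted t-test did not call them.

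Ccr2 was dim in DRG at 0 d, at -6.25, -7.18 and -6.37 with 1 of 3 arrays well above background. It read -4.92, -5.04 and -5.23 at 7 d and -5.00, -4.75 and -4.78 at 14 d, clear of 0 d and of 4 d, where it was -5.62, -6.33 and -5.64. Ccr2 rose by 1.54 ± 0.25 at 7 d (limma adjusted p = 0.00103) and 1.76 at 14 d, or 3.39-fold. With normexp background correction the difference at 7 d was 0.43 with percentile scaling and 0.24 with quantile scaling, and neither was called. The call at 14 d was lost as well, at 1.15 and 0.23. Ccr1 was not called in DRG on any day. It read -3.38, -3.83 and -3.33 at 0 d and -3.23, -2.57 and -1.99 at 14 d, a difference of 0.92 ± 0.29 (limma adjusted p = 0.0262) that was called without the third array of 0 d (1.01) or the first of 14 d (1.23).

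Ccl3 read -3.32, -4.14 and -1.78 in DRG at 0 d, a spread of over 2 units, and -1.26, -1.11 and -1.94 at 7 d. The highest array of 0 d lay above the lowest of 7 d. Ccl3 rose by 1.64 ± 0.47 at 7 d (limma adjusted p = 0.0255) and 1.59 at 14 d (limma adjusted p = 0.0194), and without the second array of 0 d, the lowest, these were 1.11 and 1.05 and not called. The calls were also lost without the first array of 0 d (1.52 and 1.46), the first or second of 7 d (1.56 and 1.48) or the first of 14 d (1.40). Ccl4 read -6.75, -5.35 and -4.12 at 0 d, -3.58, -3.28 and -3.63 on day 7 and -4.30, -4.11 and -3.70 on day 14. Ccl4 rose by 1.91 ± 0.47 at 7 d (limma adjusted p = 0.0122) and by 1.37 at 14 d (limma adjusted p = 0.0361). The call at 14 d was lost without the first array of 0 d, the dimmest, at 0.70, without the second at 1.40 and without any array of 14 d at 1.20 to 1.50. With quantile scaling the difference at 14 d was 0.75, and with normexp and percentile scaling that at 7 d was 0.98, neither called. Without the third array of 0 d the differences of Ccl4 at 1 and 4 d (1.18 and 1.14) and of Ccl3 at 4 d (1.65) were called.

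Ccl5 read -2.45, -1.69 and -1.25 in DRG at 0 d and stayed between -2.20 and -1.93 at 1 and 4 d. It read -0.87, -0.68 and -1.09 at 7 d and -0.37, -0.43 and 0.20 at 14 d, and both groups were above all arrays of 0 d. The difference at 7 d was 0.91 ± 0.25, under the fold threshold (limma adjusted p = 0.0206), and was called without the third array of 0 d (1.19) or of 7 d (1.02). At 14 d Ccl5 rose by 1.60, or 3.02-fold (limma adjusted p = 5.30e-04).

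Of Ccl2 and Ccl7, the early ligands of SN, Ccl2 was called in DRG on 1 day and Ccl7 on none. Ccl2 read 2.56, 2.84 and 3.06 at 0 d and 3.67, 3.90 and 3.94 at 4 d, its highest day. Its rise of 1.01 ± 0.14 at 4 d, or 2.02-fold (limma adjusted p = 3.31e-04), lay at the fold threshold and came to between 0.95 and 0.98 under each other scaling tried. It was also lost without the first array of 0 d (0.88) or the second or the third of 4 d (0.98 and 0.96). The differences at 1 and 7 d were 0.58 and 0.80, both with an adjusted p under the threshold (0.0114 and 0.00147, limma) but not the fold. Ccl7 read between -1.53 and -0.10 on all 15 arrays, and its differences against 0 d ran from 0.10 to 0.64 with none called on all arrays. Against the first array of 0 d alone, the lowest of its group, the differences of Ccl7 were 1.22 on day 4 and 1.12 on day 7.

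At 0 d SN and DRG differed in most of these genes. In a limma fit of all 30 arrays, 5 of the 8 genes tested were higher in SN, beside 20.0% of the 33796 probes tested. They were Ccr2 (2.80 ± 0.24, limma adjusted p = 4.72e-10), Ccr1 (2.67 ± 0.25), Ccl7 (1.34), Ccl3 (1.27) and Ccl4 (1.02, limma adjusted p = 0.0374). Ccl2 was the exception and was lower in SN by -1.41 ± 0.21 (limma adjusted p = 2.09e-06), beside 15.5% of all probes. The arrays of SN and DRG at 0 d did not overlap for Ccl2, Ccl7, Ccr1 and Ccr2. They overlapped for Ccl3 and Ccl4, whose calls were lost without the first or second DRG array or the third SN array, at 0.74 to 1.15 and 0.35 to 1.05. With normexp the difference of Ccl4 was 0.63 with percentile and 0.48 with quantile scaling, and neither was called. Ccl5 and Cx3cr1 were not called, with -0.50 and 0.19. With slide as a term the difference rests on the first DRG array alone, which shares its slide with the SN arrays. It then came to 1.52 for Ccl3, 2.37 for Ccl4, 0.91 for Cx3cr1 and 0.15 for Ccl5. Ccl4 read -6.75 on that array, the lowest of its group.

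**Figure D4:**
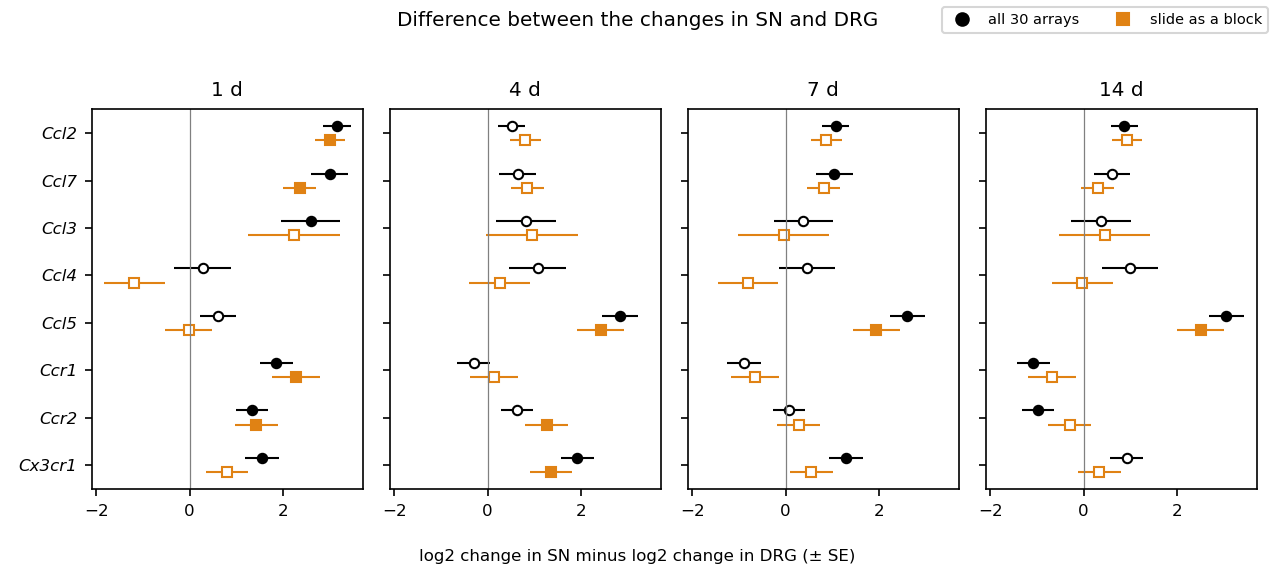
Log2 change in SN minus log2 change in DRG (± SE) for the 8 genes tested in both tissues, 1 panel per day. Circles are the limma fit on all 30 arrays, squares are the fit with slide as a term, and filled symbols have an adjusted p under 0.05. For the squares, 1 array stands for DRG at 0 d, so that no call is read from their fill. Ccl2 and Ccl7 lie near 3 at 1 d in the fit without slide, and Ccl5 lies between 1.95 and 3.06 on days 4, 7 and 14 in both fits.

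The change in SN was then set against the change in DRG on the same day, in 1 fit of all arrays and at an adjusted p under 0.05. At 1 d it was larger in SN for 6 of 8 genes, beside 15.9% of all probes. The difference was 3.16 ± 0.29 for Ccl2 (limma adjusted p = 5.25e-08), 3.005 for Ccl7, 2.60 for Ccl3, 1.86 for Ccr1, 1.55 for Cx3cr1 and 1.34 for Ccr2. With slide as a term, DRG at 0 d rests on its first array alone. The differences of Ccl2, Ccl7, Ccr1 and Ccr2 were then 3.02, 2.36, 2.28 and 1.43. Those of Ccl3 and Cx3cr1 were 2.24 ± 0.98 and 0.80 ± 0.45. The call of Ccr2 was lost with quantile scaling (1.25) and with normexp and percentile scaling (0.84), and that of Cx3cr1 with the latter (0.90).

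On day 4 the change was larger in SN for Ccl5 (2.84 ± 0.38) and Cx3cr1 (1.93). They are 2 of 8 genes beside 20.1% of all probes, so that the count is near that share. On day 7 it was larger for Ccl5 (2.61), Cx3cr1 (1.29), Ccl2 (1.08) and Ccl7 (1.04), beside 17.6%. At 14 d it was larger for Ccl5 (3.06 ± 0.38, limma adjusted p = 1.69e-06) and Ccl2 (0.88), beside 12.9%. It was smaller in SN at 14 d for Ccr1 (-1.07 ± 0.36, limma adjusted p = 0.0248) and Ccr2 (-0.98, limma adjusted p = 0.0322). They too are 2 of 8 genes, near the share of 19.4% of all probes. The difference of Ccr2 turned to 0.07 with normexp and quantile scaling. With normexp and percentile scaling the calls of Cx3cr1 (0.99) and Ccl7 (1.10) at 7 d and of Ccl2 (0.84), Ccr1 (-0.97) and Ccr2 (-0.11) at 14 d were lost. The calls of Ccr1 and Ccr2 at 14 d were also lost with quantile scaling (-0.84 and -1.006) and with the authors' deposited values (-0.84 and -0.92). Slide as a random block removed them too (-1.003 and -0.83), and removed that of Ccl7 at 7 d (0.97). Some calls rested on single arrays. Ccl2 at 14 d was lost without the first or second SN array of 0 d, the third DRG array of 0 d, the first or the third SN array of 14 d or the third DRG array of 14 d, at 0.72 to 0.84. Ccr1 at 14 d was lost without the second SN or DRG array of 0 d, the first SN array of 14 d or the third DRG array of 14 d, at -1.005 to -0.77. Ccr2 at 14 d was lost without the second SN or DRG array of 0 d, the second SN array of 14 d or the second or the third DRG array of 14 d, at -0.95 to -0.69. Ccl7 at 7 d was lost without the first or the third SN array of 0 d, the second or the third DRG array of 0 d, the second or the third SN array of 7 d or the first or the third DRG array of 7 d, at 0.79 to 1.09.

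With slide as a term the differences of Ccl5 were 2.43, 1.95 and 2.51 at 4, 7 and 14 d. At 4 d those of Cx3cr1 and Ccr2 were 1.36 and 1.27. At 7 d those of Cx3cr1, Ccl2 and Ccl7 were 0.56, 0.88 and 0.82. At 14 d those of Ccl2, Ccr1 and Ccr2 were 0.93, -0.68 and -0.30. Without the 2 DRG arrays of 0 d on the slide with no SN array, those of Ccl5 at 7 and 14 d were 1.96 and 2.41. Both fits take DRG at 0 d from its first array alone, so that the second is no separate check.

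The rest of the CC, CX3C and XC family was followed in a list of 30 genes, of which 26 were on the array, 26 tested in SN and 19 in DRG. In SN 15, 12, 14 and 14 of them had risen in the order of days, beside 18.6, 15.9, 18.1 and 14.3% of all probes, and 0, 1, 3 and 2 had fallen, beside 3.43, 6.78, 6.81 and 5.46%. Of those that rose, 10, 5, 7 and 7 were not well above background on any SN array of 0 d. In DRG 6, 8, 9 and 12 had risen, beside 7.44, 6.04, 6.58 and 13.0% of all probes, and 0, 1, 0 and 1 had fallen by limma, beside 0.169, 0.506, 0.326 and 0.460%. Of those that rose in DRG, 3, 2, 3 and 5 were not well above background on any DRG array of 0 d. At an unadjusted p under 0.05, 4 genes of the list were lower in SN at 1 d, and 2 and 2 in DRG on days 1 and 7. The median change of the list was 1.31, 0.98, 1.38 and 1.20 in SN and 0.16, 0.71, 1.03 and 1.16 in DRG.

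Ccl17 and Ccl22, ligands of Ccr4 made by dendritic cells and macrophages, rose in both tissues. Ccl17 changed by -0.04 in SN and 0.24 in DRG at 1 d, and rose by 4.63, 3.71 and 3.38 in SN and by 3.38, 4.61 and 4.68 in DRG at 4, 7 and 14 d. Ccl22 rose by 2.97 in SN at 4 d and by 2.87 in DRG at 7 d. Xcl1, which attracts cross-presenting dendritic cells, rose by 4.07, 4.53 and 3.45 in SN on the same 3 days. In DRG Xcl1 was not above background at 0 d and rose at least 5.33-fold at 1 d and 20.1, 18.8 and 20.5-fold after that. Ccl12, another Ccr2 ligand of rodents, rose by 4.64 in SN and 4.20 in DRG at 7 d.

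Of the receptors, Ccr7, which guides dendritic and T cells, rose by 1.93 to 2.82 in SN, and in DRG at least 1.74, 1.24 and 1.34-fold at 1, 7 and 14 d. Ccr9, a homing receptor of lymphocytes, was not above background at 0 d in either tissue and rose in SN at least 2.77-fold at 7 d. Ccl6 rose in both tissues at 4 d, by 1.49 and 1.51. Ccl28 rose at 1 d by 1.66 in DRG and at least 2.97-fold in SN. Xcr1, the receptor of Xcl1, was not above background at 0 d in either tissue and was called in both at 1 and 14 d. In SN it rose at least 1.52 and 1.40-fold on these days. In DRG its means of -6.34 and -6.54 lay below the mean of the dimmest signals above background at 0 d (-5.83), so that no bound is given.

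The family genes called lower than at 0 d were few. Ackr2, a decoy receptor that takes up inflammatory CC ligands, fell by 1.41, 1.28 and 1.43 in SN at 4, 7 and 14 d. Ccl19, a ligand of Ccr7, fell by 1.02 and 1.45 in SN at 7 and 14 d. Ccl11, an eosinophil attractant, fell by 1.29 and 1.12 in DRG at 4 and 14 d and rose by 1.19 and 1.08 in SN at 7 and 14 d. Ccl28 was called lower in SN at 7 d between groups that were both not above background. Chosen after its values were seen, Cx3cl1, the fractalkine ligand of Cx3cr1, read -0.90 in SN at 1 d (limma adjusted p = 3.07e-04, under the fold threshold) and between 0.00 and 0.46 later, with no call in either tissue. Chosen in the same way, Ccr6, the receptor of Ccl20, rose in SN at least 2.44-fold at 7 d and was not tested in DRG.

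Genes of chemokine receptor signalling and migration were followed in a list of 26, with 24 on the array. In SN 14, 14, 15 and 13 rose in the order of days, beside 18.6, 15.9, 18.1 and 14.3% of all probes, and 0 fell, beside 3.43, 6.78, 6.81 and 5.46%. In DRG 0, 1, 6 and 7 of 23 tested rose, beside 7.44, 6.04, 6.58 and 13.0%, and 0 fell by limma, beside 0.169, 0.506, 0.326 and 0.460%. The DRG counts of 0 and 1 on days 1 and 4, and those of 0 fallen, are no higher than these shares. Other probes of these genes were called lower in SN, 2 on day 4 and 1 on day 7. At an unadjusted p under 0.05, 5 were higher in DRG at 1 d, and 0, 0, 2 and 3 were lower in SN and 2, 3, 1 and 1 in DRG. Its median change was 1.18, 1.45, 1.43 and 1.11 in SN and 0.02, 0.22, 0.41 and 0.22 in DRG. Those called in both tissues at 7 d were Rac2, a small GTPase of leukocyte migration, with 1.93 in SN and 1.06 in DRG, and its exchange factor Vav1 with 2.38 and 1.10. The kinase Fgr had 2.55 and 1.61, the integrin chains Itgb2 and Itgal had 2.56 and 1.41, and 3.68 and 1.60, and Pik3cg, the kinase subunit that chemokine receptors activate, had 1.81 in SN and was not above background in DRG at 0 d. Rgs1, which ends G protein signalling, was called in both at 14 d, with 3.37 and 1.19.

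Leukocyte markers moved beside these genes. The 11 monocyte and macrophage markers (Cd68, Csf1r, Aif1, Cd163 and others) summed to between 55.7 and 64.6 in SN at 0 d, 142 and 217 on day 1, and 246 and 304 on day 4. In the order of days 9, 11, 9 and 8 of the 11 rose there, beside 18.6, 15.9, 18.1 and 14.3% of all probes. In DRG these markers summed to between 20.8 and 34.5 at 0 d and 73.7 and 80.6 at 7 d. There 0, 5, 7 and 6 rose by limma, beside 7.44, 6.04, 6.58 and 13.0% of all probes, with 2 higher at 1 d at an unadjusted p under 0.05. The neutrophil markers (S100a8, S100a9, Cxcr2 and others, 8) summed to between 0.892 and 1.14 in SN at 0 d, 8.37 and 15.5 on day 1 and 1.50 and 1.84 on later days. In SN 6 of the 8 were called higher at 1 d and 4 on each later day, beside the SN shares just given. Elane, Csf3r and Mmp8 were among them on all days, and Mpo was called lower at 4 d, beside 6.78% of all probes. Elane and Mmp8 were not well above background on any SN array of 0 d. In DRG the neutrophil sum ranged from 2.60 to 7.31 at 0 d and from 5.79 to 10.7 at 14 d.

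**Figure D5:**
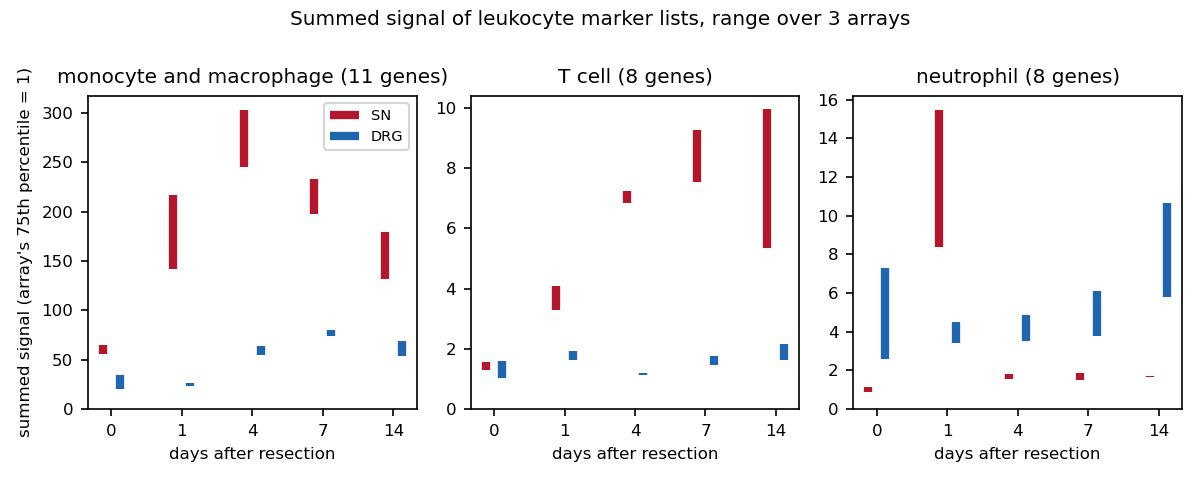
Summed linear signal of 3 leukocyte marker lists (vertical axes, in units of each array's 75th percentile) by days after resection. Each bar spans the lowest to the highest of 3 arrays, in SN and in DRG. In SN the neutrophil sum is high at 1 d, the monocyte and macrophage sum at 4 d (246 to 304), and the T cell sum from 4 d on.

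The T cell markers (Cd3d, Cd2, Cd8a, Lck and others, 8) summed to between 1.30 and 1.57 in SN at 0 d, 3.29 and 4.10 on day 1, 6.83 and 7.23 on day 4, and 5.36 and 9.96 on day 14. In SN 5 of them (Cd3d, Cd3e, Cd2, Cd8a and Lck) rose at 1 d, when Ccl5 was not called, and all 8 rose on the later days, when it was. Of all probes in SN, 18.6% rose at 1 d and 15.9, 18.1 and 14.3% on the later days. Cd3e and Cd247 were not well above background on any SN array of 0 d. In DRG the sum stayed between 1.03 and 2.17 on all days. There Cd3e, Cd247, Cd4 and Cd8a were not above background at 0 d, and 4 of 8 markers were called higher at 7 and 14 d, beside 6.58 and 13.0% of all probes. The sum of the 7 mast cell markers went the other way in SN, from between 15.8 and 17.5 at 0 d to between 5.51 and 7.01 from 4 d on. In the order of days 2, 5, 5 and 4 of these markers were called lower, beside 3.43, 6.78, 6.81 and 5.46% of all probes. Kit, a receptor kinase in that list, was called higher in SN on days 1, 7 and 14, by 1.98, 1.52 and 1.24. The part of these cells in the changes of the chemokine genes was not tested.

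The genes whose signal was most like that of each member were taken as the 2 with the highest Pearson r over the 30 arrays, among 33381 probes. The arrays share tissue, day and slide, so that r describes the shape of the profile only and has no p. Ccl3 was nearest to Il1b (r = 0.965) and Fcgr1a (0.950), Ccl7 to C5ar1 (0.967) and Slpi (0.964), and Ccr1 to Srgn (0.973) and Ltb4r (0.970). Ccl4 was nearest to Sectm1a (0.947) and Gzma (0.940), and Ccl5 to Tnfrsf14 (0.942) and Zap70 (0.941), where Gzma and Zap70 are genes of cytotoxic and T cells. Ccr2 was nearest to Ptpn7 (0.978) and Cmtm7 (0.976), and Cx3cr1 to Snx20 (0.970) and Cd300lf (0.964). Ccl20 was nearest to Heatr1 (0.959) and Pcna (0.950), the latter a gene of DNA replication. The lowest of these values were those of Ccl2, with Rcl1 at 0.894 and Prss22 at 0.891.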

How the data were processed

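Total RNA of 15 SN and 15 DRG samples was hybridized, labelled with a single dye, to Agilent whole-genome rat arrays. The intensity values are the scanner output that the authors deposited, where the processed signal of each spot had been background-subtracted by Feature Extraction with no normalization between arrays. A deposited table holds the authors' log2 values for 41012 probes, with the same distribution on every array, and served as an alternative. The labels and the study's methods name different extraction reagents and different numbers of groups of rats.

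Here flagged spots were left out, the log2 values of spots with the same probe were averaged, and each array's 75th percentile was subtracted. A probe was tested if it was well above background (at least 0.5 of its spots marked so) on all 3 arrays of at least 1 group. limma 3.58.1 (statmod 1.5.0, R 4.3.3) was fitted per tissue, and over all 30 arrays for comparisons between tissues, with Benjamini-Hochberg adjustment. A bound ("at least") sets the brighter mean against the mean over arrays of the dimmest signal above background or the gene's own, whichever is higher. The members and lists were chosen with earlier results of these data known. For the most alike genes, the 2 highest r were named. List genes were named where called in both tissues on a day or lower than at 0 d, except for an item not reported here. Arrays carry no read depth, and 3 arrays per group limit the precision. Alternatives covered scaling, background correction, filters, the test, slide, replicate block and each array left out.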

Additional observations from a re-analysis of the deposited data

Results flagged for a closer look

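For these genes the change against 0 d differed between SN and DRG by the interaction term of the limma fit on all 30 arrays, and values are SN minus DRG on the log2 scale. At 1 d the differences were 3.16 for Ccl2, 3.005 for Ccl7, 2.60 for Ccl3, 1.86 for Ccr1, 1.55 for Cx3cr1 and 1.34 for Ccr2. At 4 d they were 2.84 for Ccl5 and 1.93 for Cx3cr1. At 7 d they were 2.61 for Ccl5, 1.29 for Cx3cr1, 1.08 for Ccl2 and 1.04 for Ccl7, and at 14 d 3.06 for Ccl5, 0.88 for Ccl2, -1.07 for Ccr1 and -0.98 for Ccr2. With slide as a term, 1 array stands for DRG at 0 d. Ccl3 and Cx3cr1 at 1 d then came to 2.24 and 0.80, and Ccl5 at 7 and 14 d to 1.95 and 2.51. The other differences listed at 7 and 14 d lay between -0.68 and 0.93. Without the DRG arrays of 0 d on the slide with no SN array, they lay between -0.94 and 0.82, against that same array of 0 d. No member was tested for a lone outlying array, since every group holds 3 arrays.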

How the results depend on the processing

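The number of these genes called was recomputed under each alternative. In SN the counts against 0 d stayed within 1.5 times of 7, 8, 8 and 6, except that normexp background with quantile normalization gave 5 at 4 d in place of 8. From 7 to 14 d in SN, the count of 1 became 0 with normexp and the 75th percentile, with slide as a random or a fixed block, on the 6 arrays compared alone and in the methods' t-test with Benjamini-Hochberg adjustment.

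In DRG at 4 d, the count of 2 became 1 with quantile normalization, normexp and the 75th percentile, the percentile over probes well above background on all arrays, the authors' deposited log2 values, and a filter that wants both groups above background. It became 0 with normexp and quantile normalization and in the adjusted t-test. In DRG at 7 d, the count of 4 became 2 with normexp and quantile normalization, on the 6 arrays and in the t-test with or without adjustment, and 1 with normexp and the 75th percentile or under that filter. In DRG at 14 d, the count of 5 became 2 with normexp and quantile normalization or under that filter, 3 with normexp and the 75th percentile, on the 6 arrays and in the unadjusted t-test, and 1 in the adjusted t-test. From 1 to 4 d in DRG, the count of 0 became 1 with quantile normalization and the deposited log2 values. From 4 to 7 d in DRG it became 1 with normexp and quantile normalization, with an intensity trend and robust prior and in the fit on all 30 arrays, and 2 in the unadjusted t-test. Without the DRG 0 d arrays on the slide with no SN array, an alternative chosen after seeing the data, 1 control array is left and no count is given.

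For SN change against DRG change, the count at 4 d of 2 became 4 with normexp and quantile normalization. At 7 d the count of 4 became 2 with normexp and the 75th percentile. At 14 d the count of 4 became 1 with normexp and the 75th percentile, and 2 with slide as a random block. No count is given with slide as a fixed block or without those DRG 0 d arrays, since 1 array then stands for DRG at 0 d.

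With each array left out in turn, the counts against 0 d in SN ran from 7 to 8 at 1 d, 7 to 8 at 4 d, 8 to 8 at 7 d and 6 to 8 at 14 d, and in DRG from 0 to 2, 1 to 4, 3 to 5 and 3 to 6. The steps from 1 to 4, 4 to 7 and 7 to 14 d ran from 5 to 6, 0 to 1 and 0 to 3 in SN and from 0 to 1, 0 to 2 and 0 to 0 in DRG. SN against DRG at 0 d ran from 4 to 6, and the differences of change from 6 to 7, 2 to 4, 3 to 5 and 1 to 6.

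Among the differences against 0 d and those called in other comparisons, the following changed sign, and of them Ccr2 between tissues alone had been called. In DRG at 1 d, Ccl3 was -0.0802 with quantile normalization, -0.0281 with normexp and quantile normalization and -0.0792 in the deposited values, Ccl4 was -0.0230, -0.0455 and -0.0200 in the same order, Ccl7 was -0.11 with normexp and quantile normalization and -0.0548 with normexp and the 75th percentile, Ccr2 was -0.14 with normexp and quantile normalization, and Ccl5 was 0.28 without those DRG 0 d arrays. In DRG at 4 d, Ccl4 was -0.0692 with normexp and quantile normalization and Ccl5 was 0.43 without those arrays. The difference of change of Ccr2 at 14 d was 0.0681 with normexp and quantile normalization. With each array left out in turn, the DRG differences that changed sign ran from -0.39 to 0.79 for Ccl3, -0.14 to 1.18 for Ccl4 and -0.19 to 0.35 for Ccl7 at 1 d, from -0.17 to 1.14 for Ccl4 and -0.56 to 0.0449 for Ccl5 at 4 d, and from -0.0353 to 0.50 for Ccl7 at 14 d. Among differences between tissues that were called neither way, slide as a fixed block turned Ccl5 at 0 d to 0.15 and the differences of change of Ccl4 at 1, 7 and 14 d to -1.18, -0.80 and -0.0298, of Ccl5 at 1 d to -0.0167, of Ccl3 at 7 d to -0.0396 and of Ccr1 at 4 d to 0.14. Leaving out those DRG 0 d arrays turned Ccl5 at 0 d to 0.15 and the differences of change of Ccl4 to -1.07, -0.27, -0.89 and -0.35 in the order of days and of Ccl5 at 1 d to -0.0457. The cause was not tested.

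The replicate numbers were not taken as pairs. The deviations of same-numbered SN and DRG arrays of a day from their group means correlated at -0.193 to 0.252, over 0.1 in 3 of 15 pairs. With the replicate number as a fixed term in each tissue's fit no count changed, with 7 in SN at 1 d and 5 in DRG at 14 d. In the fit of all arrays, day and replicate number formed a random block (correlation 0.0055), and no count changed.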
